A study of Mus musculus with 2 samples.

Results

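Nuclear receptors and their coregulators were examined in 2 individual cells of dissociated CD1 mouse retina, 1 taken on postnatal day 0 (P0) and 1 on embryonic day 12.5 (E12.5). The genes were chosen by name: probe sets with 1 gene symbol that is a receptor of the Nr0 to Nr6 subfamilies (subgroups a to h, leaving out Nr2f1 and Nr2f2), a retinoic acid, retinoid X, thyroid hormone, estrogen, estrogen-related, PPAR, ROR or vitamin D receptor, or a coregulator of the Ncoa or Ncor families. The choice gave 110 probe sets of 44 genes, out of 45101 probe sets on the array and 18194 named genes. Of the 44 genes, 37 encode receptors and 7 encode Ncoa coactivators. Both cells came from papain-dissociated retina of an albino outbred strain, and oligo dT primed cDNA of each was amplified by 35 cycles of PCR and hybridised to a separate Affymetrix mouse array. The cells are labelled ciliary body because the submitters assigned them to the eye's ciliary body and iris region from their array profiles. As each age is a single cell, no replicate checks any value, so every difference is one between the 2 cells, "at P0" and "at E12.5" mean these cells, and neither p-values nor standard errors are given.

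Nuclear receptors are transcription factors that bind DNA through a zinc finger domain, many of them at copies of the half-site AGGTCA, and whose activity is often set by a small lipophilic ligand. Retinoid X receptors (RXRs) are the common dimer partner of the retinoic acid, thyroid hormone, vitamin D, PPAR, LXR and FXR receptors. A ligand typically swaps a corepressor complex for coactivators of the Ncoa type and for Mediator, which links the receptor to RNA polymerase II. In the developing eye, retinoic acid and thyroid hormone act through these receptors, and orphan members such as Nr2e1 and Rorb take part in progenitor growth and neuron formation.

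The deposited values are MAS5 signals on a linear scale. The median signal was 42.2 at P0 and 43.2 at E12.5. A signal counted as above background when it exceeded the 99th percentile of 201 probe sets for genes not known to act in the eye, which was 342 in the P0 array and 237 in the E12.5 array. A gene was called higher in a cell when it was above that limit there and the ratio of both signals, each first raised to its array's limit, was at least 4. A fold against a signal under the limit is a lower bound, written "at least". Of the marker lists for the region, 7 of 12 ciliary margin genes were above background at P0 and 9 at E12.5. Of these 12, 1 was called higher at P0 and 5 at E12.5, with summed signals of 32767 and 73497. Of 8 ciliary body and iris genes, 6 were above background in each cell, but 4 in both. In that list 4 were called higher at P0 and 2 at E12.5, with summed signals of 66074 and 45631. Of 8 amacrine and horizontal cell genes, 3 were above background at P0 and 2 at E12.5 (Gad2 and Slc6a9 in both, Calb1 at P0), with Slc6a9 and Calb1 called higher at P0 and a summed signal of 12178 at P0 and 5113 at E12.5, and of 7 ganglion cell genes Ebf3 was called higher at P0 (1041 and 17.8). No photoreceptor (of 6), microglial (of 6), erythroid (of 3) or lens gene (of 6) was above background in either cell. In the P0 cell 2 of 7 mesenchymal genes (Col1a2 and Pdgfra) and 1 of 6 vascular genes (Rgs5) were above it, and at E12.5 2 of 8 pigment cell genes (Trpm1 and Rab38). Summed over the lists, the signal was 6105 at P0 and 442 at E12.5 for the 7 mesenchymal genes, and 178 and 8933 for the 8 pigment cell genes; their part in the differences below was not tested.

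Of the 44 receptor and coregulator genes, 28 (63.6%) were below background in both cells by their representative probe set, close to the 59.7% of all named genes. Of the other 16, 14 were above it in a single cell. By all probe sets 26 genes were below, as Ncoa2 and Nr4a3 each had another probe set above background at P0. The representative is the probe set of a gene whose log2 signal had the highest mean. By it, 10 of 44 genes (22.7%) were above background at P0, where 28.4% of all named genes were. At E12.5 8 (18.2%) were, beside 30.7% of all. Nr2c1 and Ncoa6 were the 2 genes above background in both cells (4.55% of the 44, against 18.9% of all named genes). Of the 16 genes above background in at least 1 cell, both cells thus shared 12.5%, and of all 7335 such named genes 46.8%. Counted as probe sets, 13 of 110 (11.8%) were above background at P0, where 22.4% of all probe sets with 1 gene symbol were, 10 (9.09%) at E12.5 against 24.5% of all, and 2 (1.82%) in both against 14.1%. Because a gene passes the limit through the cell where it is bright, these shares describe the genes that passed and are no evidence of a change between ages.

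A total of 7 genes were at least 4-fold higher at P0 and 3 at least 4-fold higher at E12.5, and all 10 were under the limit in the dimmer cell. The 7 were Nr2e1, Nr2c2, Nr1d2, Thra, Nr1h4, Ncoa7 and Ncoa4, or 15.9% of the 44 genes, while 9.46% of all named genes were called higher at P0. The 3 were Rxrb, Rxra and Ncoa1, or 6.82%, beside 7.41% of all. Counted as probe sets, 9 of 110 (8.18%) were called on the P0 side, beside 7.44% of all, and 4 (3.64%) on the E12.5 side, beside 5.77%. The median log2 ratio of P0 over E12.5 was 1.13 for the 16 genes above background in at least 1 cell and 0.03 for all such genes. Over all 44 genes with no filter, as log2(signal + 100), it was 0.10, and -0.01 over all named genes. Among all called genes 56.1% were higher at P0, and 36.2% after scaling to the spike-ins of the hybridisation, so the balance of directions follows the scaling. That scaling shifted the median log2 ratio of genes above background in both cells to -0.77 from 0.02.

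Because many of these receptors recognise the same half-site, the 250 bases before the RefSeq start sites (assembly GRCm38.p6) of the genes themselves were searched for AGGTCA on both strands (TGACCT on the other strand). The windows of Nr2e1, Nr1d2 and Nr1h4, which were higher at P0, and of Rxra and Rxrb, which were higher at E12.5, are shown 5′ to 3′ on the gene's strand, with each half-site in capitals.
Nr2e1, chr10:42583591-42583840, minus strand: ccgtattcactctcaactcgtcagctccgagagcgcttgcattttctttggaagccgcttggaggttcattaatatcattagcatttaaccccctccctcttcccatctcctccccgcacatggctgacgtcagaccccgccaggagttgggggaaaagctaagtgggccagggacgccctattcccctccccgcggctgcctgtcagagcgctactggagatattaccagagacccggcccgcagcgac
Nr1d2, chr14:18239107-18239356, minus strand: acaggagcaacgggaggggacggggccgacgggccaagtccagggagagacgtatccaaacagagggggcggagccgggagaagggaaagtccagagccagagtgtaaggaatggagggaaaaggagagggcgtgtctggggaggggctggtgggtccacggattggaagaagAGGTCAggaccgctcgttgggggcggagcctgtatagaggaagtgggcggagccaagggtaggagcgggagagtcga
Nr1h4, chr10:89506659-89506908, minus strand: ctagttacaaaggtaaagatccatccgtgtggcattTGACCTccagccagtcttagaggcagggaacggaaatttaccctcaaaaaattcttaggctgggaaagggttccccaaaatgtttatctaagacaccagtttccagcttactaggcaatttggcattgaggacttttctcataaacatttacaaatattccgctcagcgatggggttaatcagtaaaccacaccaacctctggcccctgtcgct
Rxra, chr2:27709042-27709291, plus strand: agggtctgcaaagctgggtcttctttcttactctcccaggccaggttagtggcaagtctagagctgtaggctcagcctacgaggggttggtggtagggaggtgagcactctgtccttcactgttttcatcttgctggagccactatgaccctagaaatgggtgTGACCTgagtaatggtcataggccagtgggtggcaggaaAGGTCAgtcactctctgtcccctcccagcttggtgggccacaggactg
Rxrb, chr17:34031562-34031811, plus strand: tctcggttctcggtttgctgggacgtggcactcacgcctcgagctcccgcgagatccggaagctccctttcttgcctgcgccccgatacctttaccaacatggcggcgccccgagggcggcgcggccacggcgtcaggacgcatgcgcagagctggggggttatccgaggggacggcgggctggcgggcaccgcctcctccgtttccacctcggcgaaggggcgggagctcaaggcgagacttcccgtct
The window of Nr1d2 holds the half-site on the gene's strand, starting 77 bases before the start site. That of Nr1h4 holds it on the other strand, 214 bases before. The window of Rxra shown, which lies before the second of its 2 start sites in the table, holds it on the other strand 87 bases before and on the gene's strand 48 bases before, and the window of its first start site has no copy. The windows of Nr2e1 and Rxrb hold none, and neither does that of the other Rxrb start site. In all, 39 of the 44 genes matched the table, with 61 windows. The half-site was in 12 of the 61 (19.7%) and in 14.0% of all 32851 windows, while the half-site of steroid receptors, AGAACA, was in 7 (11.5%) and in 16.1% of all. Median GC content was 61.2% for the 61 windows and 52.4% for all. A match describes these letters and is not a shown binding site.

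Of the 3 retinoid X receptor genes, 2 were called higher at E12.5, beside 7.41% of all named genes. Rxrb had a signal of 8.52 at P0 and 2480 at E12.5, at least 7.25-fold higher at E12.5. Rxra had 78.5 at P0 and 1437 at E12.5, at least 4.20-fold higher there. In both genes the E12.5 signal was well over its limit and the P0 signal well under. The other probe sets of Rxra, 2 in number, were below both limits, and Rxrb has a single probe set. Rxrg, the remaining RXR gene, had 63.6 at P0 and 22.1 at E12.5, both below background. None of the 4 probe sets of the retinoic acid receptor genes Rara, Rarb and Rarg was above background, with signals up to 80.3 at P0 and 29.8 at E12.5.

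Of 11 measured genes of retinoid supply and breakdown, 1 was above background at P0 and 6 at E12.5, beside 28.4% and 30.7% of all. Beside 9.46% and 7.41% of all named genes, 0 were at least 4-fold higher at P0 and 5 at E12.5. Those 5 were Aldh1a1 and Aldh1a3, which make retinoic acid, Crabp1 and Crabp2, which bind it in the cytoplasm, and the retinol uptake receptor gene Stra6. Aldh1a1 had a signal of 29.5 at P0 and 11975 at E12.5, and Crabp1 had 11.8 and 7961 in the same order. Rdh10, which makes retinaldehyde, was above background in both cells, at 2831 at P0 and 1688 at E12.5. The retinoic acid synthesis gene Aldh1a2 (24.5 at P0 and 82.1 at E12.5) and the retinol carrier gene Rbp4 (93.4 and 69.3) were below background in both cells, as was Dhrs3. The breakdown genes Cyp26a1 and Cyp26b1 were below background in both.

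The thyroid hormone receptor gene Thra stood on the P0 side. Its signal was 1713 at P0 and 53.1 at E12.5, at least 7.23-fold higher at P0. The other 2 probe sets of Thra were below both limits, with signals of 187 and 52.2 at P0 and 11.1 and 9.13 at E12.5. Thrb, with signals of 4.13 at P0 and 54.3 at E12.5, and the vitamin D receptor gene Vdr were below background in both. So were all 5 measured genes of thyroid hormone supply, among them the activating deiodinase gene Dio2 at 103 at P0 and 10.2 at E12.5. Of 7 thyroid hormone and vitamin D target genes, Klf9, which encodes a zinc finger repressor induced by thyroid hormone and glucocorticoids, was called, with 3082 at P0 and 15.0 at E12.5, at least 13.0-fold higher at P0. Of its 7 probe sets 2 were called, both the same way, and the mean over all 7 ended the call.

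Among receptors for lipids and bile acids, Nr1h4 and Ppard were above background at P0 and none at E12.5. Nr1h4, the bile acid receptor FXR best known from liver and gut, had its single probe set at 1602 at P0 and 92.3 at E12.5, at least 6.76-fold higher at P0. Ppard, a fatty acid receptor found in most tissues, had 571 at P0 and 3.75 at E12.5, a fold of at least 2.41 that does not reach the threshold, though it does under 3 of the alternatives. Nr1h3 (LXR alpha), Ppara and Pparg were below background in both cells. Of 9 measured PPAR target genes, 6 were above background at P0 and 4 at E12.5, beside 28.4% and 30.7% of all named genes. While 7.41% of all were at least 4-fold higher at E12.5 and 9.46% at P0, 0 of these were so at E12.5 and 3 at P0. They were Angptl4, an inhibitor of lipoprotein lipase (4267 at P0 and 169 at E12.5), the lipid droplet coat gene Plin2 (1721 and 47.7) and Hadha, of mitochondrial fatty acid oxidation (8910 and 1972). Acadm, Acadl and Cpt1a, also of fatty acid oxidation, were above background in both cells and differed by less than 4-fold. Of 8 LXR targets, the cholesterol exporter gene Abcg1 (1384 at P0 and 22.3 at E12.5) and the phospholipid remodelling gene Lpcat3 (2935 and 83.7) were higher at P0, and the desaturase gene Scd1 (22.1 and 3493) at E12.5. The related gene Scd2 was above background in both cells, at 15471 at P0 and 21370 at E12.5.

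Rev-erb and ROR receptors compete for the same DNA sites and repress or activate the clock gene Arntl. Of the 4 genes measured, 1 was above background in each cell, and 1 was called, at P0. Nr1d2 (Rev-erb beta) had 2355 at P0 and 2.73 at E12.5, at least 9.94-fold higher at P0. Its second probe set was below both limits, at 9.09 at P0 and 40.2 at E12.5, as was the single probe set of Nr1d1 (Rev-erb alpha), at 188 and 23.3. Rorb, a receptor of retinal progenitors and photoreceptor precursors, had 10.6 at P0 and 657 at E12.5, a fold of at least 1.92 that does not reach the threshold, though it does under 3 of the alternatives. All 9 probe sets of Rora were below background in both cells, with signals no higher than 116 at P0 and 89.2 at E12.5.

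Of 12 clock genes, 5 were above background at P0 and 3 at E12.5, beside 28.4% and 30.7% of all named genes. Both directions occurred, with 5 at least 4-fold higher at P0 and 2 at E12.5, beside 9.46% and 7.41% of all. The activator genes Arntl (1492 at P0 and 5.65 at E12.5) and Clock (1495 and 23.5), the repressor gene Cry2 (1819 and 107), Nfil3, a Rev-erb target encoding a leucine zipper repressor (3004 and 122), and Per3 (1817 and 343) were at least 4-fold higher at P0. The repressor genes Per1 (27.5 at P0 and 4755 at E12.5) and Per2 (4.28 and 1808) were higher at E12.5 by at least 13.9-fold and 5.29-fold. A second probe set of Clock was called the same way, and a second probe set of Per3 the opposite way, at 45.8 at P0 and 1733 at E12.5. Cry1, Npas2, Dbp, Bhlhe40 and Bhlhe41 were below background in both. Scaled to the spike-ins, 2 clock genes stayed above 4-fold at P0 and 2 at E12.5, and with the mean over probe sets 2 and 1. Those left by the mean, Cry2, Nfil3 and Per1, have 1 probe set each, which it could not change.

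**Figure D1:**
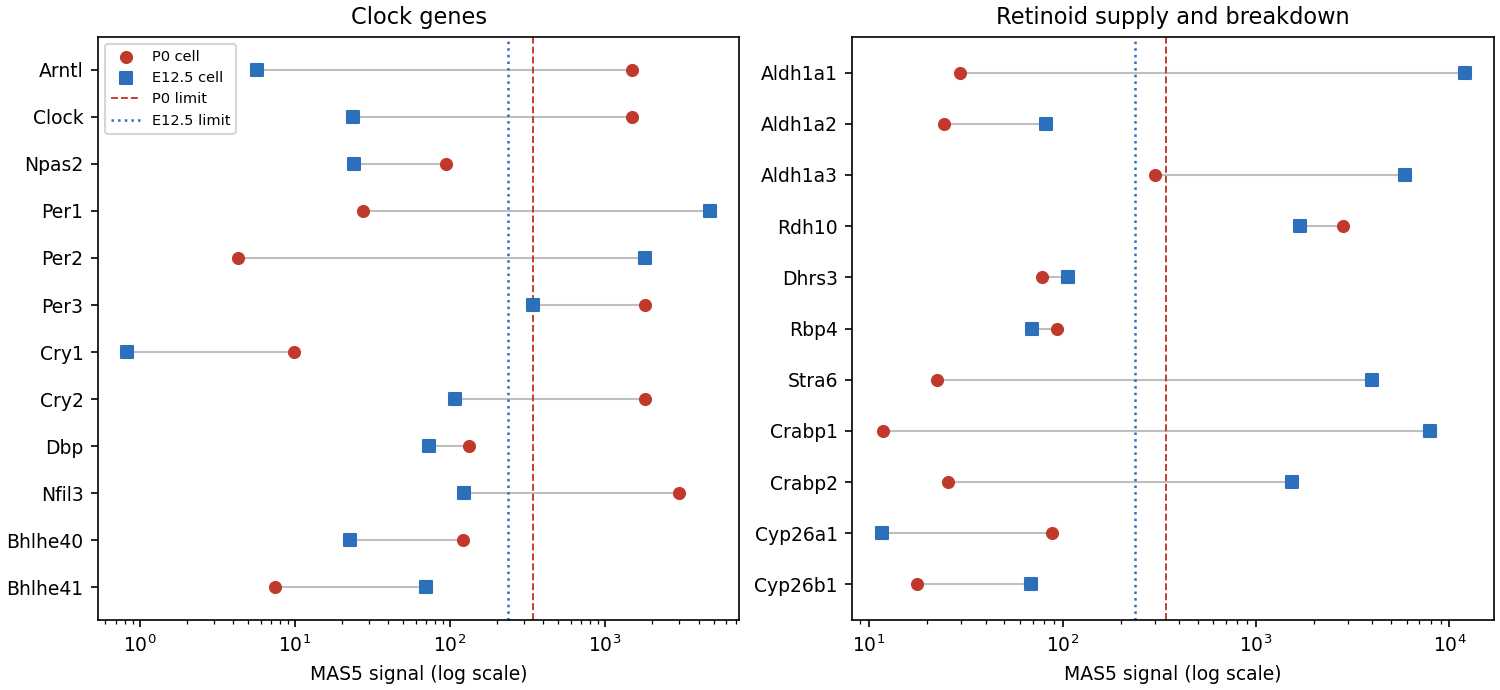
MAS5 signal on a log scale of the 12 clock genes (left) and the 11 measured genes of retinoid supply and breakdown (right), with P0 as red circles, E12.5 as blue squares and each array's limit as a vertical line. Arntl, Clock, Cry2 and Nfil3 pass the limit at P0 only, while Per1, Per2 and 5 retinoid genes pass it at E12.5 only.

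Of the 4 orphan receptor genes of the NR2 group, 3 were above background at P0 and 2 at E12.5. Nr2e1, known as Tlx and needed for the upkeep of neural stem cells and for retinal development, had 3365 at P0 and 60.6 at E12.5, at least 14.2-fold higher at P0. Its second probe set was below both limits, at 262 at P0 and 2.45 at E12.5. Nr2c1 (TR2), a testicular orphan receptor, was above background in both cells by 1 of its 5 probe sets. That one had 892 at P0 and 449 at E12.5. The others were below both limits, at up to 170 at P0 and 148 at E12.5. The log2 ratio of the bright Nr2c1 probe set, 0.99, is close to the SD of 0.84 between probe sets of the same gene. It was measured over 984 genes with several probe sets above background in both cells. Probe sets above background in a single cell, such as those of Nr2c2, are left out of it. That SD describes how probe sets differ within this pair of cells and does not measure the spread between cells of an age. Nr2f6, a relative of the COUP-TF receptors, had 35.8 at P0 and 833 at E12.5, a fold of at least 2.43 that does not reach the threshold.

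Nr2c2 (TR4), the dimer partner of Nr2c1, had probe sets that pointed in opposite directions. Its first probe set had 2701 at P0 and 6.39 at E12.5, at least 11.4-fold higher at P0. Its second probe set had 4.07 at P0 and 2796 at E12.5, at least 8.18-fold higher at E12.5. The first has the higher mean on the log2 scale and so decided the call; taking the probe set with the highest signal in either cell turns its direction round, to a log2 ratio of -3.03. Each cell thus had 1 bright Nr2c2 probe set, and the other 4 of this gene were below both limits. Of 744 named genes with at least 2 probe sets called, 116 (15.6%) had calls in opposite directions. Among the 44 genes 2 had at least 2 called probe sets, Nr2c2 and Ncoa4, and Ncoa4's were called the same way.

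Of 7 steroid and estrogen-related receptor genes, Nr3c1, the glucocorticoid receptor gene, was above background, at E12.5. It had 15.0 at P0 and 821 at E12.5, with a second probe set at 1.85 and 805; the folds are at least 2.40 and at least 2.35, below the threshold. The other 4 of its 6 probe sets were below both limits. Of 8 glucocorticoid target genes, 2 were above background at P0 and 6 at E12.5, beside 28.4% and 30.7% of all named genes. Called higher were 1 at P0, Klf9, and 3 at E12.5, beside 9.46% and 7.41% of all. The 3 were the receptor's co-chaperone gene Fkbp5 (50.7 at P0 and 1640 at E12.5), the kinase gene Sgk1 (38.8 and 3596) and Per1, which is also in the clock list. The phosphatase gene Dusp1 was above background in both, at 9104 at P0 and 2767 at E12.5. A second probe set of Fkbp5, at 18.7 at P0 and 361 at E12.5, was not called. Tsc22d3, at 150 and 527, was not called either, but 2 of its other probe sets were called at E12.5. Those had 6.64 and 8.63 at P0, against 1570 and 1558 at E12.5. The mineralocorticoid receptor gene Nr3c2 and Esr1, Esr2, Esrra, Esrrb and Esrrg were below background, with signals up to 126 at P0 and 173 at E12.5. Of other steroid receptors and HNF4 genes, Pgr, Hnf4a and Hnf4g were below it as well.

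The NR4A receptors, which are induced rapidly by many stimuli and act without a ligand, were below background by the representative probe set of each gene. Nr4a2 had the brightest of these, at 297 at P0 and 191 at E12.5. Nr4a3 had another probe set above background at P0, at 419, with 9.86 at E12.5, a fold of at least 1.77. All 13 probe sets of Nr0b1, Nr0b2, Nr5a1, Nr5a2 and Nr6a1, receptors of the adrenal, gonad, liver or germ line, were below background, with signals up to 120 at P0 and 219 at E12.5.

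**Figure D2:**
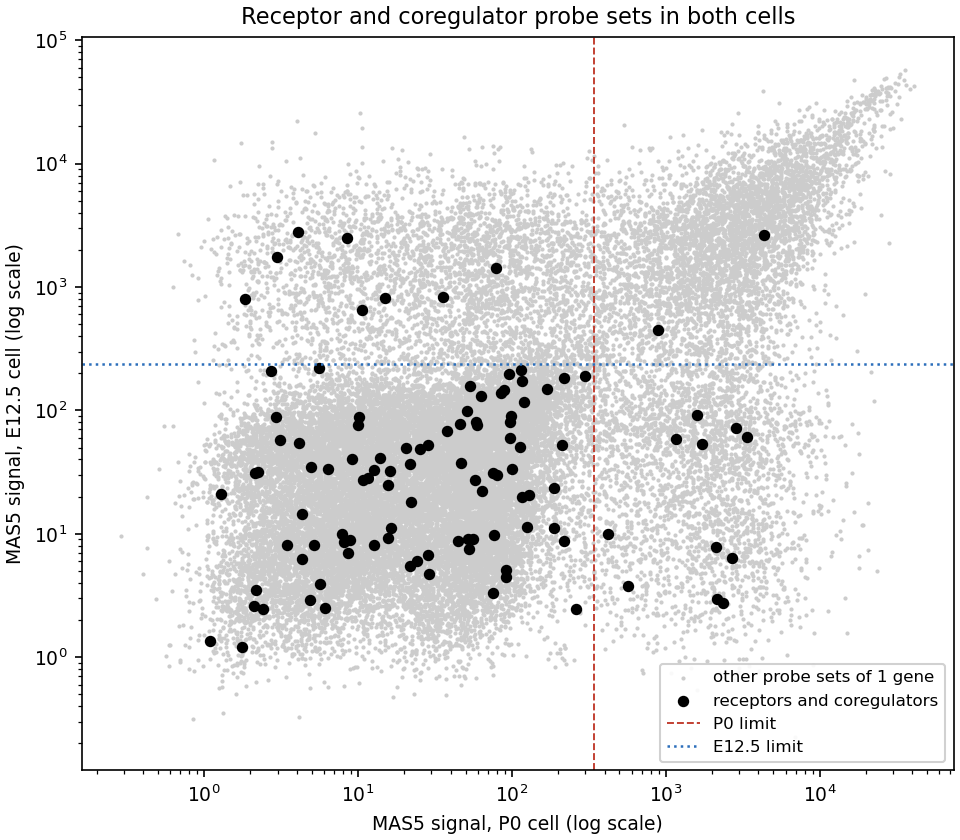
MAS5 signal of the 110 receptor and coregulator probe sets (black) over all other probe sets of 1 gene (grey), P0 cell on the horizontal and E12.5 cell on the vertical axis, both on a log scale, with each array's limit as a line. In all, 89 lie below both limits, and Nr2c1 and Ncoa6 are the 2 black points above both.

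Of the 3 p160 coactivator genes, whose products bring histone acetyltransferases to ligand-bound receptors, 1 was above background, at E12.5. Ncoa1 (SRC-1) had 2.97 at P0 and 1741 at E12.5, at least 5.09-fold higher at E12.5, while its other 2 probe sets were below both limits. Ncoa2 (SRC-2) was below background by its representative probe set, at 53.6 at P0 and 158 at E12.5. Another probe set of Ncoa2, named here after its values were seen, had 2141 at P0 and 2.98 at E12.5, at least 9.03-fold higher at P0. Both probe sets of Ncoa3 (SRC-3) were below background in both cells.

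Of the other Ncoa genes, Ncoa6 was above background in both cells and Ncoa4 and Ncoa7 at P0. Ncoa6, a component of histone H3K4 methyltransferase complexes, had 4319 at P0 and 2656 at E12.5. Its log2 ratio of 0.70 is smaller than the SD of 0.84 between probe sets of a gene above background in both cells. That SD does not measure the spread between cells. Ncoa4, which also delivers ferritin for breakdown, had 1158 and 2130 by its 2 probe sets at P0, against 58.6 and 7.79 at E12.5, so that it was higher at P0 by at least 4.88-fold and 8.98-fold. No other of the 10 called genes had further probe sets called the same way. Ncoa7, related to oxidation resistance proteins, had 2868 at P0 and 72.2 at E12.5, at least 12.1-fold higher at P0, with its second probe set below both limits. Ncoa5, with 2.71 at P0 and 207 at E12.5, was below background in both.

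General coregulators, which these receptors share with other factors, were above background in larger shares than the receptors, of which 7 of 37 were so at P0 and 6 at E12.5. Of 26 other coactivators, 19 were above background at P0, 20 at E12.5 and 17 in both, beside 28.4%, 30.7% and 18.9% of all. Called higher were 3 at P0 and 2 at E12.5, beside 9.46% and 7.41% of all named genes. The acetyltransferase gene Kat2a (3995 at P0 and 223 at E12.5), the RNA methyltransferase gene Tgs1 (1735 and 4.09) and Pnrc2 (5006 and 1118) were at least 4-fold higher at P0. The CBP acetyltransferase gene Crebbp (1324 at P0 and 9328 at E12.5) and the PGC-1 relative gene Pprc1 (48.6 and 2363) were at least 4-fold higher at E12.5. The RNA helicase genes Ddx5 (29413 at P0 and 26360 at E12.5) and Ddx17 (10618 and 11620) differed little between the cells.

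Of 33 Mediator genes, 17 were above background at P0, 19 at E12.5 and 12 in both, beside 28.4%, 30.7% and 18.9% of all. Med1, the subunit that contacts ligand-bound receptors, had 1734 at P0 and 3539 at E12.5, a 2.04-fold difference. A total of 5 were at least 4-fold higher at P0, beside 9.46% of all named genes. They were Cdk19 (7274 at P0 and 14.0 at E12.5), Med12, Med4, Med13 and Med11. At E12.5 6 were so, beside 7.41% of all: Med23 (305 at P0 and 7135 at E12.5), Med7, Med10, Med21, Med14 and Med12l. Above background in both cells were Med21 (1821 and 9462) and, just over the limit at P0, Med14 (357 and 3113) and Med12l (367 and 2132). The Cdk8 gene, encoding the close relative of Cdk19, had 2750 at P0 and 3545 at E12.5, and Med8 had 3069 and 3997. The Med13 probe set behind the call had 1422 at P0 and 205 at E12.5. A second one pointed the opposite way, at 2.54 at P0 and 1233 at E12.5. Its fold of at least 3.61 was not called.

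**Figure D3:**
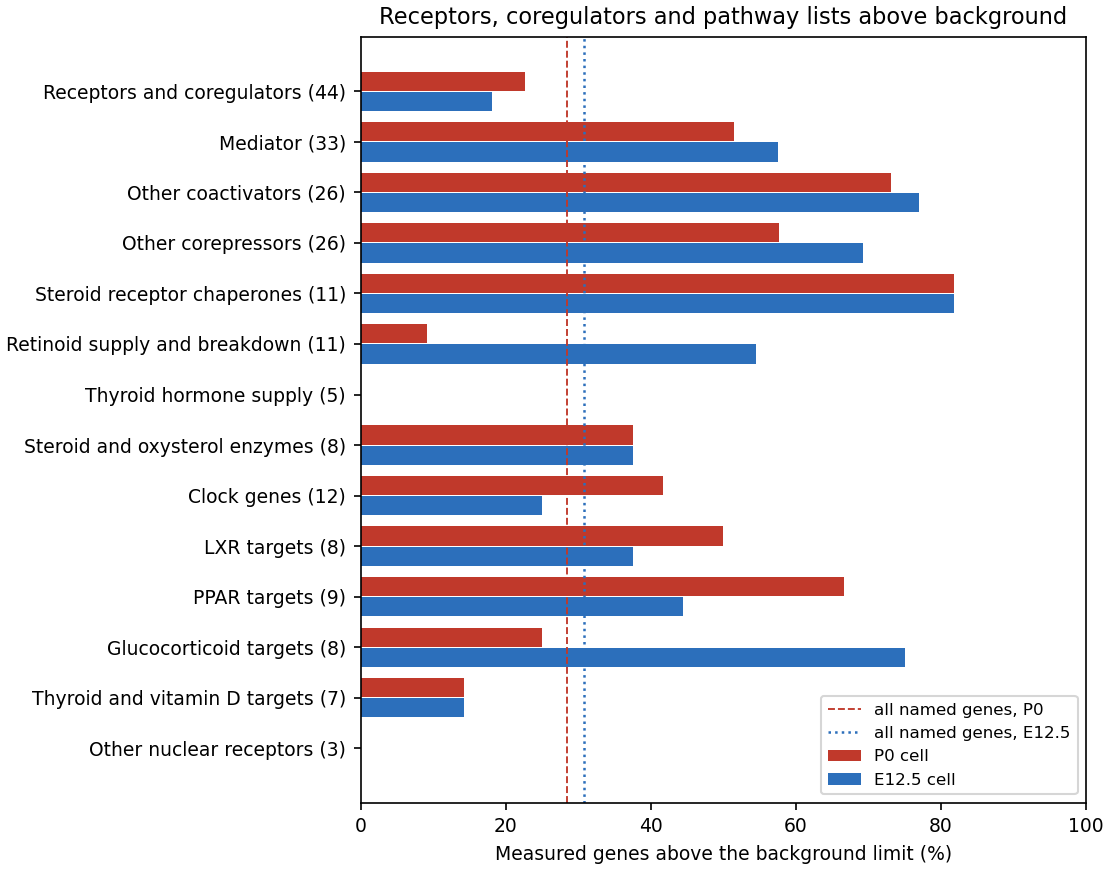
Share of measured genes above the background limit at P0 (red) and the E12.5 cell (blue), for the 44 receptors and coregulators and for each pathway list, with the number of genes in brackets and the shares of all named genes as vertical lines (28.4% and 30.7%). The receptor and coregulator bars, 22.7% and 18.2%, are left of those lines, while other coactivators reach 73.1% and 76.9%.

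Corepressors were also above background in many cases, 15 of 26 at P0 and 18 at E12.5, beside 28.4% and 30.7% of all. Called higher were 4 at P0 and 6 at E12.5, beside 9.46% and 7.41% of all named genes. Hdac3, a deacetylase of nuclear receptor corepressor complexes, had 1356 at P0 and 3406 at E12.5. Ctbp1, a corepressor of the CtBP family, had 8530 at P0 and 9360 at E12.5, and the deacetylase gene Hdac2 had 5135 and 10026. The WD40 subunit genes of the Hdac3 complexes, Tbl1x (3025 at P0 and 55.7 at E12.5) and Tbl1xr1 (3341 and 59.1), were called higher at P0, but each had another probe set called the opposite way, at 1.69 at P0 and 2702 at E12.5 for Tbl1x and at 27.4 and 1603 for Tbl1xr1. Nrip1, which encodes the receptor-interacting corepressor RIP140, had the same disagreement: 2 probe sets had 7.96 and 4.56 at P0, against 5553 and 6001 at E12.5, and another had 8020 at P0 and 3.03 at E12.5. Ctbp2 (334 at P0, just under the limit, and 3651 at E12.5), Rcor1 (564 and 5348), Bcl11a (277 and 2215), Rcor2 (117 and 2062) and Spen (39.1 and 1445) were at least 4-fold higher at E12.5, and Sirt1 (2745 and 30.8) and Cir1 (1467 and 43.3) at P0; 1 further probe set of Bcl11a went the opposite way. Over all lists 52 genes were called, of which 10 had another probe set called the same way and 5 another called the opposite way: Bcl11a, Nrip1, Per3, Tbl1x and Tbl1xr1.

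Taking the mean over all probe sets of a gene ended the call of 7 of the 10 called receptor and coregulator genes. They were Nr2e1, Nr2c2, Nr1d2, Thra, Ncoa7, Rxra and Ncoa1. The calls left were those of Ncoa4 and of Nr1h4 and Rxrb, which have 1 probe set each and could not change. Among the 52 called list genes the mean over probe sets ended the calls of 22. These were Abcg1, Ahsa1, Angptl4, Arntl, Bcl11a, Cdk19, Clock, Crebbp, Cyp7b1, Fkbp5, Klf9, Med12l, Med13, Med14, Nrip1, Per2, Per3, Rcor1, Scd1, Tbl1x, Tbl1xr1 and Tgs1. Called list genes with 1 probe set, such as Aldh1a1, Bag1 and Per1, could not lose their call in this way. Under a 95th percentile limit, a limit from bacterial controls and a pseudocount without limit, Rorb (log2 ratios of -2.75, -3.27 and -2.77), Nr2f6 and Nr3c1 passed 4-fold on the E12.5 side and Ppard (2.28, 2.76 and 2.69) on the P0 side. Scaling to the spike-ins ended the calls of Ncoa4 and Nr1h4 and brought Nr2f6 and Nr3c1 past 4-fold on the E12.5 side. Among the list genes this scaling ended 9 calls, all on the P0 side: Abcg1, Arntl, Cir1, Clock, Hadha, Med11, Med13, Per3 and Pnrc2.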

How the data were processed

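The authors deposited signal intensities, 1 for each probe set in each cell, made with MAS5 per the submitters' processing notes. They appear to be scaled array by array: the mean signal was 500.0 at both ages once 2% of probe sets had been trimmed from either end. The MAS5 version, its settings and the genome build were not given in the sources used here. Among the 45101 probe sets, GEO's annotation of the platform named a single gene for 34958, several genes for 932 and none for 9211, and RefSeq (GRCm38.p6) gave current symbols for 34754 by gene identifier. The background families were receptors for odours, pheromones and taste, proteins of hair and sperm chromatin, defensins of the gut, milk caseins, urinary, seminal vesicle and zona pellucida proteins, prolactin relatives and pregnancy-specific glycoproteins. Limits and calls are defined in the results. Receptor and coregulator genes above the limit in at least 1 cell were named, as were, from each list, up to 5 called genes in each direction and up to 4 of the genes above it in both cells. These genes and the lists were chosen with earlier results of these data known. The scoring code was run on simulated data made from the E12.5 array alone, with large changes planted in bright genes. That setting has no transcripts missed in a single cell. It checks the code and does not show how reliable the calls here are. Alternatives were other limits, scalings and probe set choices. Python 3.11.15, numpy 2.4.6 and pandas 2.3.3 were used. With 1 array per age, the number of arrays limits the precision. Oligo dT priming and reverse transcription in a single cell can miss a transcript, so a gene below background is not shown to be absent.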

Additional observations from a re-analysis of the deposited data

How the results depend on the processing

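With the limit at the 95th percentile of the background families, 21 of the 44 receptor and coregulator genes were above it at P0. There were 17 at E12.5 and 6 in both, while 42.5%, 39.1% and 26.9% of all named genes were so. At least 4-fold higher at E12.5 were 6, beside 10.9% of all. The median log2 ratio reversed to -0.039, beside -0.103 for all such genes. With the limit from bacterial controls these counts were 28, 20, 12 and 6, beside 51.5%, 46.4%, 33.1% and 11.5% of all. The median was 0.17, beside -0.107 for all. Scaled to the hybridisation spike-ins, 5 genes were at least 4-fold higher at P0 and 5 at E12.5, beside 6.35% and 11.2% of all. The median was then 0.34, beside -0.756 for all. With the mean over probe sets, 4, 2 and 1 genes were above the limit at P0, at E12.5 and in both. The shares of all genes were 17.6%, 20.9% and 10.8%. Called higher were 2 genes at P0 and 1 at E12.5, beside 4.89% and 3.89% of all. The median was 1.99, beside 0.05 for all. Without probe sets that may cross-hybridise, 4 genes were above the limit in both, beside 20.5% of all. The limits were then retaken from the background probe sets that remained and were lower. The log2 ratio of Rxrb, from the same probe set, moved from -2.86 to -3.79. With a pseudocount and no limit, 6 genes were called higher at E12.5, beside 10.4% of all, and the median was 1.77, beside -0.129. With the probe set of highest signal in either cell, chosen after seeing the data, Nr2c2 reversed to -3.03. Quantile normalisation moved none of the counts beyond 1.5 times. Rxrb was the 1 called gene of 10 that kept its call under all 8 alternatives. It has 1 probe set, so the mean over probe sets and the choice of the brightest could not change its signal. Of 52 list genes called, 30 kept their call with the mean over probe sets and 43 with spike-in scaling. The 30 include genes with 1 probe set, which the mean could not change. Of the called list genes with several probe sets, only Aldh1a3, Ctbp2, Hsd17b12, Kat2a and Pnrc2 kept their call with the mean. The causes were not tested. Signals near the limit have no order. No paired analysis was possible because each age has 1 cell.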

Other observations

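The chaperone machinery that holds steroid receptors ready for hormone was above background in both cells for 8 of 11 measured genes. Of all named genes 18.9% were so. Hspa8 had 41113 at P0 and 42598 at E12.5, Hsp90aa1 8753 and 12349, and Fkbp4 6690 and 4864. Dnaja1 had 8776 and 8218, while its other 2 probe sets were called higher at P0, at 10947 and 8871 at P0, against 2399 and 1422 at E12.5. Bag1, a nucleotide exchange factor of Hsp70, had 11174 at P0 and 130 at E12.5, at least 47.1-fold higher at P0, and Ahsa1, an activator of Hsp90, had 3716 and 522, 7.12-fold higher at P0.

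Of 8 measured enzymes of steroid and oxysterol metabolism, 3 were above background in each cell, beside 28.4% of all at P0 and 30.7% at E12.5. Cyp7b1, which breaks down oxysterols, was at least 10.2-fold higher at P0 (2422 at P0 and 42.4 at E12.5), with 1 of its other 2 probe sets called the same way and no call by the mean over all 3. Hsd17b12, which acts in fatty acid elongation and on estrone, was at least 14.1-fold higher at E12.5 (48.2 at P0 and 4805 at E12.5), and Cyp46a1, the cholesterol 24-hydroxylase gene, 4.17-fold higher there (375 at P0 and 1561 at E12.5).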
